A study of Homo sapiens with 6 samples.

Results

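The RNA of 9 cell surface proteins that imaging agents or therapies target in prostate and other cancers is described here, namely FOLH1, STEAP1, STEAP2, PSCA, CEACAM5, DLL3, CD276, NECTIN4 and DPP4. They were chosen by name, and all 9 were found among the 59565 loci of the count table. Of the 6 libraries, 3 came from C4-2 Enz-R, an enzalutamide-resistant line of C4-2 cells, and 3 from C4-2 parental, the line it was set against. C4-2 is a human prostate cancer cell line derived from LNCaP cells, and enzalutamide is an antiandrogen drug. The labels do not say how Enz-R was selected, whether it is 1 clone, whether the drug was present at collection, or whether the libraries came from separate cultures. The p-values thus rest on library-to-library spread alone, and that spread may be technical. RNA was measured by paired-end sequencing of 150 bp reads, with 15673404 to 28247038 counts per library. In bulk RNA, fewer cells that express a gene and less RNA per cell cannot be told apart.

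These proteins reach the clinic because antibodies, radioligands or engineered T cells can bind them from outside the cell. FOLH1 encodes prostate-specific membrane antigen (PSMA), a membrane peptidase that removes glutamate from folates and peptides and is the target of PSMA imaging and radioligand therapy. In prostate cancer cells androgens are known to lower FOLH1 RNA. STEAP1 and STEAP2 belong to a family of membrane metalloreductases, PSCA and CEACAM5 are anchored to the membrane by a glycolipid, CD276 (B7-H3) is an immune regulatory protein of the B7 family, NECTIN4 is an adhesion molecule, DLL3 is an inhibitory Notch ligand known from neuroendocrine tumours, and DPP4 (CD26) is a serine peptidase that clips peptide hormones and chemokines.

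Of the 9 genes, 8 passed the count filter. FOLH1, STEAP1, STEAP2, CD276 and DPP4 were lower in Enz-R, and PSCA, DLL3 and NECTIN4 were higher, by the quasi-likelihood test of edgeR, with Benjamini-Hochberg adjusted p-values over 19029 genes. The largest difference was that of DPP4, 6.83-fold lower in Enz-R, and the largest rise was that of PSCA, 2.96-fold. CEACAM5 had 0 counts in all 6 libraries. Over all tested genes 64.8% were called by the same test, 32.4% as higher and 32.3% as lower, so a call as such does not set these 8 genes apart. The Enz-R and parental libraries did not overlap in any of the 8, which was also so for 68.9% of all tested genes, with Enz-R above in 34.2% and below in 34.7%. Fold changes are Enz-R over parental, as log2 values ± SE, and levels are CPM, counts scaled to a common library size, as mean ± SD with n = 3 libraries per line.

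**Figure D1:**
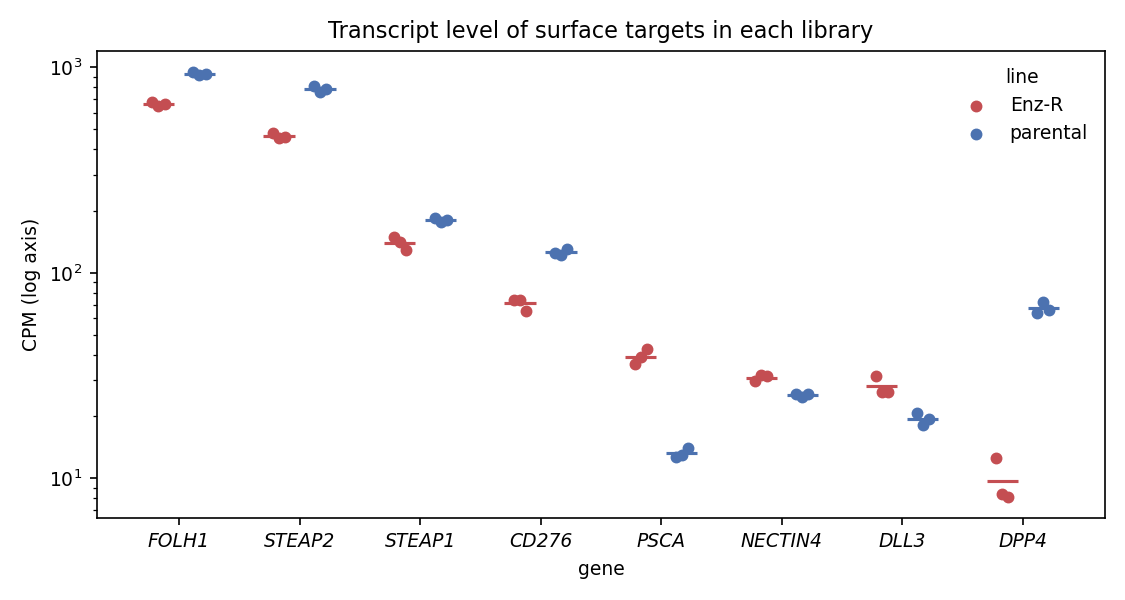
CPM (log axis) of the 8 counted surface targets in each library, with Enz-R in red to the left of parental in blue. Points are single libraries and bars are means of 3 libraries. The libraries of the 2 lines are apart for every gene, with the widest gaps for DPP4 (9.66 against 67.2 CPM) and PSCA (39.1 against 13.2 CPM), and CEACAM5, at 0 in each library, is not drawn.

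Promoters are shown so that those of DPP4, STEAP1, STEAP2 and CD276, which fell, can be read beside that of CEACAM5, which had 0 counts. RefSeq start sites (GRCh38.p14) are described for 6 of the 9 genes, with 8 start sites in all. FOLH1 and DLL3 had no entry, and PSCA was left out, so its window was not examined. Each sequence below is the 250 bases before a start site, 5′ to 3′ on the strand of the gene, with the GC box GGGCGG, or its complement CCGCCC, in capitals. The DPP4 sequence is chr2:162074216-162074465 on the minus strand. STEAP1 is chr7:90154219-90154468, STEAP2 is chr7:90211490-90211739, CD276 is chr15:73684133-73684382 and CEACAM5 is chr19:41708376-41708625, all on the plus strand. STEAP2 and CD276 have a second listed start site, and the one shown lies further upstream. The STEAP2 window shown still lies well inside the gene, annotated from 90167590 to 90238137, and so is not at its annotated 5′ end. The windows shown for DPP4, annotated to 162074542, and CD276, annotated from 73683966, also lie inside their genes, near the annotated 5′ ends.
DPP4: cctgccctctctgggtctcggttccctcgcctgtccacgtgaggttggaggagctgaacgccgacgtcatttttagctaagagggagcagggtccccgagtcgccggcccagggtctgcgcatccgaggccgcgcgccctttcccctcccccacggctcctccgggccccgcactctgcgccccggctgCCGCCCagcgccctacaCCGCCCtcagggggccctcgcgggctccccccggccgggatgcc
STEAP1: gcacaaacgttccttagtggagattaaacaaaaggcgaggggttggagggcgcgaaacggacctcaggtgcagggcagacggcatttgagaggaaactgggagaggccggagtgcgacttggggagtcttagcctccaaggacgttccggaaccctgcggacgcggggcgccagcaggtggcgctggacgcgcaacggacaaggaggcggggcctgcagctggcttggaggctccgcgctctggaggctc
STEAP2: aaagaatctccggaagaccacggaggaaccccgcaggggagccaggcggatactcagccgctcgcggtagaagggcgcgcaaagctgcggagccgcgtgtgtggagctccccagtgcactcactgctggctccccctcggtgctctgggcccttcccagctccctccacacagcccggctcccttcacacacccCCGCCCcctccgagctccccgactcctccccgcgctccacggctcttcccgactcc
CD276: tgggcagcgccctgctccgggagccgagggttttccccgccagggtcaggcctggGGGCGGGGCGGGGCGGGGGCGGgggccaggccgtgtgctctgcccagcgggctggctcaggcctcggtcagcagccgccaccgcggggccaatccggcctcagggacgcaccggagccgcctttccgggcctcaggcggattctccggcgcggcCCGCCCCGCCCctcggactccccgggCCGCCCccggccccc
CEACAM5: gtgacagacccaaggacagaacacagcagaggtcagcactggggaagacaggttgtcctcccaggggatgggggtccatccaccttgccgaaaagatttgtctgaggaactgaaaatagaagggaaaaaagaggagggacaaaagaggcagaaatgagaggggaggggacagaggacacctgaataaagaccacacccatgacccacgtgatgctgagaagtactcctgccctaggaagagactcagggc

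The DPP4 window held 26 CpG dinucleotides and the GC box 2 times. The STEAP1 and STEAP2 windows each held 21 CpG dinucleotides, with 0 and 1 GC boxes, and the CD276 window held 29 with 7 GC boxes, of which some share bases with each other. The second STEAP2 start site had a window with 2 CpG dinucleotides and 0 GC boxes, and that of CD276 had 23 and 2. The CEACAM5 window also held 2 CpG dinucleotides and 0 GC boxes, and that of NECTIN4, a gene that rose, held 6 and 2. The windows shown for DPP4, STEAP1, STEAP2 and CD276 held more CpG dinucleotides than either, but the second STEAP2 window did not. NECTIN4 was the only gene that rose with a window here, since DLL3 had no entry and PSCA was left out by name. The contrast thus lacks PSCA, the gene with the largest rise, and was not tested. Over 35116 RefSeq windows of the same length the median was 11 CpG dinucleotides, and 42.6% held a GC box on either strand. The hormone response half-site AGAACA, searched on both strands, was found once in the CEACAM5 window and once in that of NECTIN4, and 12.4% of all windows hold it. It was not in the windows of DPP4, STEAP1, STEAP2 or CD276, which says nothing of sites elsewhere. These matches describe letters in a window and were not tested as binding sites.

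Among the peptidases, FOLH1 (ENSG00000086205, chromosome 11, 49146635 to 49208670, GRCh38) was at 680.1, 649 and 662 CPM in the Enz-R libraries, against 951, 923 and 927 CPM in the parental libraries. Each Enz-R library was below each parental library. The means were 664 ± 15.8 CPM in Enz-R and 934 ± 14.8 CPM in parental, a log2 fold change of -0.49 ± 0.06 (1.41-fold lower, adjusted p = 5.75e-06). FOLH1 shares sequence with the pseudogene FOLH1B, in that 19.6% of the 100-base words of its longest coding transcript also occur there. FOLH1B held 122 counts in Enz-R and 248 in parental, against 36221 and 64859 for FOLH1, so reads that went to the pseudogene were few beside those given to the gene.

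DPP4 (ENSG00000197635, chromosome 2, 161992241 to 162074542) was at 12.5, 8.34 and 8.14 CPM in the Enz-R libraries, against 64.0, 71.9 and 65.8 CPM in the parental libraries. Enz-R replicate 1 was the highest of the 3 Enz-R libraries and still far below the parental ones. The log2 fold change was -2.77 ± 0.12 (adjusted p = 4.33e-11), and it was -3.02 to -2.66 when each library was left out in turn. DPP4 was the only one of the 9 genes that was called and at least 2-fold lower, as were 8.66% of all tested genes. The antisense transcript DPP4-DT, which overlaps DPP4 on the other strand and was named after its values were seen, had 16 counts in Enz-R and 153 in parental (-2.85 ± 0.42, adjusted p = 2.40e-05). The counting is not stated to use strand, so reads from the overlap cannot be told apart, but DPP4 itself held 542 and 4630 counts.

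The metalloreductase relatives STEAP1 and STEAP2 are neighbours on chromosome 7, with STEAP1 at 90154375 to 90164829 and STEAP2 at 90167590 to 90238137. STEAP1 is a surface antigen bound by T cell engagers and CAR T cells. It was at 149.8, 141 and 129 CPM in the Enz-R libraries, against 185, 177 and 181 CPM in the parental libraries (-0.37 ± 0.06, adjusted p = 0.000128). The Enz-R libraries all lay lower, by 1.29-fold in the fit. STEAP2 reduces iron and copper at the membrane. It was at 478, 455 and 457 CPM in the Enz-R libraries, against 810.4, 761 and 787 CPM in the parental libraries (-0.76 ± 0.06, 1.70-fold lower, adjusted p = 5.62e-08). Of the 100-base words of STEAP1, 6.75% also occur in STEAP1B, which held 16 counts in Enz-R and 54 in parental. The antisense gene STEAP2-AS1 overlaps both and held 28 and 34 counts.

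Among the glycolipid-anchored antigens, PSCA (ENSG00000167653, chromosome 8, 142670308 to 142682724), named prostate stem cell antigen, was at 35.9, 38.9 and 42.4 CPM in the Enz-R libraries, against 12.6, 13.0 and 14.0 CPM in the parental libraries. All Enz-R libraries lay far above all parental ones. The log2 fold change was 1.57 ± 0.08 (adjusted p = 5.87e-10), with 2107 counts in Enz-R and 910 in parental. PSCA overlaps JRK on the other strand, and JRK had 2201 counts in Enz-R and 2837 in parental and was not called. The counting is not stated to use strand, so reads of the overlap cannot be told apart. JRK held more counts than PSCA in both lines, so the part of such reads in the PSCA level is not known.

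CEACAM5, the carcinoembryonic antigen gene (ENSG00000105388, chromosome 19, 41708585 to 41729798), was the undetected member. With 0 counts in a library, up to 3 counts remain possible, which is 0.137 to 0.194 CPM in the Enz-R libraries and 0.104 to 0.150 CPM in the parental libraries. This limit covers counting error only. The locus ENSG00000267881, which overlaps CEACAM5 on the same strand and shares 17.0% of its 100-base words, also had 0 counts. No change of CEACAM5 between the lines could be measured at this depth.

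CD276 (ENSG00000103855, chromosome 15, 73683966 to 73714518), the B7-H3 gene, was at 73.5, 74.0 and 65.4 CPM in the Enz-R libraries, against 124, 123 and 131 CPM in the parental libraries. The lines were well apart, with means of 71.0 ± 4.87 CPM in Enz-R and 126 ± 4.18 CPM in parental (-0.83 ± 0.06, 1.77-fold lower, adjusted p = 3.30e-08). NECTIN4 (ENSG00000143217, chromosome 1, 161070995 to 161089599), the target of an antibody-drug conjugate used in urothelial cancer, was at 29.7, 31.6 and 31.3 CPM in the Enz-R libraries, against 25.8, 25.0 and 25.6 CPM in the parental libraries. The libraries did not overlap, but its rise was the smallest of the called changes of the group (0.28 ± 0.07, 1.21-fold, adjusted p = 0.00272). With total count scaling it was 0.18 (adjusted p = 0.0462).

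DLL3 (ENSG00000090932, chromosome 19, 39498895 to 39508481) was at 31.6, 26.3 and 26.3 CPM in the Enz-R libraries, against 20.7, 18.2 and 19.4 CPM in the parental libraries. Enz-R replicate 1 was the highest, and the other 2 Enz-R libraries still exceeded all parental ones. The log2 fold change was 0.53 ± 0.09 (1.44-fold, adjusted p = 0.000105). After correction of each library for GC content and transcript length, an alternative added after the data were seen, it was 0.27 (adjusted p = 0.0180), and the longest DLL3 transcript is 64.9% G and C. Of 5 neuroendocrine markers, INSM1 had 0 counts in Enz-R and 1 in parental, NEUROD1 2 and 4, and CHGA 6 and 29, while SYP, the synaptophysin gene, was at 5.23 ± 0.687 CPM in Enz-R and 2.32 ± 0.405 CPM in parental (1.17 ± 0.18, adjusted p = 4.13e-05). The summed level of the 5 markers was 4.92 to 6.07 CPM in Enz-R libraries and 3.06 to 3.90 CPM in parental libraries, and their part in the DLL3 result was not tested.

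Levels were compared between genes as CPM per kilobase of exon. In Enz-R the order ran FOLH1 (174 ± 4.13 CPM per kilobase), STEAP1 (86.0 ± 6.51), STEAP2 (53.2 ± 1.45), PSCA (22.2 ± 1.86), CD276 (12.8 ± 0.879), DLL3 (10.7 ± 1.17), NECTIN4 (8.82 ± 0.30) and DPP4 (1.93 ± 0.491), with CEACAM5 last at 0. In parental it ran FOLH1 (244 ± 3.88), STEAP1 (111 ± 2.50), STEAP2 (90.2 ± 2.81), CD276 (22.7 ± 0.754), DPP4 (13.4 ± 0.824), PSCA (7.49 ± 0.40), DLL3 (7.43 ± 0.465) and NECTIN4 (7.27 ± 0.122), again with CEACAM5 last. FOLH1, STEAP1 and STEAP2 thus held the same leading places in both lines. PSCA stood at place 4 in Enz-R and at place 6 in parental, and DPP4 at place 8 in Enz-R and at place 5 in parental. Neighbours in the order whose libraries overlapped were CD276 and DLL3 in Enz-R, and PSCA, DLL3 and NECTIN4 in parental. Per kilobase of the longest coding transcript these neighbours did not overlap. The overlap thus depends on the length used, and their order within the line is not settled.

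Among 13580 tested protein-coding genes, FOLH1 ranked 149 by level per kilobase in Enz-R and 75 in parental. STEAP1 ranked 328 in Enz-R and 211 in parental, and STEAP2 ranked 623 and 279. PSCA ranked 1839 in Enz-R and 5487 in parental, whereas DPP4 ranked 9677 in Enz-R and 3270 in parental. These 2 genes moved furthest through the ranks. The order of the 9 genes was the same with the length of the longest coding transcript, but 6 genes in Enz-R and 4 in parental took another place when length was ignored.

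**Figure D2:**
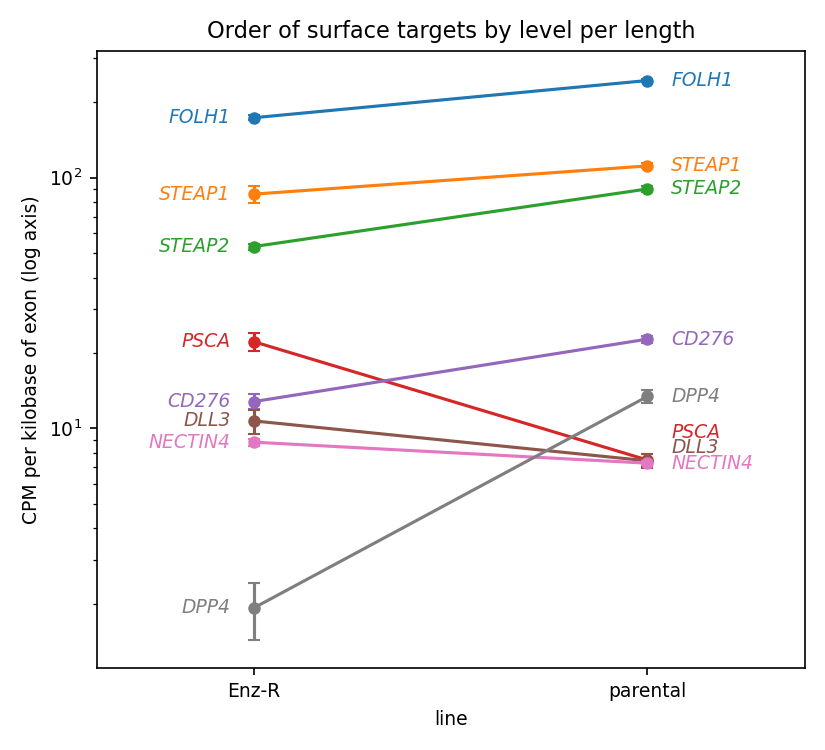
Mean CPM per kilobase of exon (log axis) of each surface target in Enz-R on the left and parental on the right, with SD over 3 libraries. Lines join the same gene. FOLH1, STEAP1 and STEAP2 stay on top, the lines of PSCA (22.2 against 7.49) and DPP4 (1.93 against 13.4) cross those of other genes, and some names are shifted up slightly to avoid overlap.

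Ratios between 2 genes within a library do not depend on library scaling. The STEAP1 to STEAP2 count ratio was -1.73 ± 0.08 on the log2 scale in Enz-R and -2.12 ± 0.01 in parental, a difference of 0.39. FOLH1 to STEAP2 was 0.52 ± 0.02 in Enz-R and 0.25 ± 0.03 in parental, a difference of 0.27, and CD276 to FOLH1 was -3.23 ± 0.11 and -2.89 ± 0.06, a difference of -0.34. DPP4 to FOLH1 was -6.13 ± 0.32 in Enz-R and -3.80 ± 0.11 in parental, a difference of -2.33. In these 4 pairs the lines did not overlap, whereas FOLH1 to STEAP1 overlapped (2.25 ± 0.10 in Enz-R and 2.37 ± 0.01 in parental). The two-sided exact permutation test gave p = 0.10 for each of the 4 pairs, the smallest that 3 against 3 libraries allow, and p = 0.30 for FOLH1 to STEAP1 (0.125 and 0.30 adjusted over the 5 pairs). After correction for GC content and length, STEAP1 stood at -0.51 and STEAP2 at -0.50, so the gap between these neighbours was no longer seen. The longest STEAP2 transcript is 36.9% G and C and that of STEAP1 42.5%.

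Close relatives of the 9 genes were examined as a list of 42, of which 27 were tested, with 7 higher, 11 lower and a median log2 fold change of -0.15, beside 0.01 over all genes tested. The called share was 66.7% of the list's tested genes, near the 64.8% of all genes. NAALAD2, a peptidase gene related to FOLH1, was at 0.812 ± 0.162 CPM in Enz-R and 7.0 ± 0.544 CPM in parental (-3.11 ± 0.20), and FOLH1B fell by 0.69 ± 0.23 (adjusted p = 0.0160), with overlapping libraries. The FOLH1B call was lost without Enz-R replicate 2, Enz-R replicate 3, parental replicate 1 or parental replicate 2. STEAP3, an endosomal ferrireductase gene, was at 34.0 ± 4.44 CPM in Enz-R and 30.9 ± 1.32 CPM in parental and was not called (0.15 ± 0.09, adjusted p = 0.156), while STEAP4 had 5 and 14 counts. Of the LY6 and uPAR domain genes, LY6E (0.91 ± 0.06) and LYPD3 (0.97 ± 0.16) rose, LYPD6 fell (-1.13 ± 0.25) and LYNX1 was not called (0.18 ± 0.08).

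CEACAM19 rose to 6.17 ± 0.666 CPM in Enz-R, against 2.33 ± 0.684 CPM in parental, and CEACAM1 was not called (0.03 ± 0.25), while CEACAM6 and CEACAM7 had 1 and 0 counts in Enz-R and 0 and 0 in parental. Among Notch ligands DLL1 (0.77 ± 0.10) and JAG2 (0.68 ± 0.06) rose. JAG1 fell to 3.38 ± 0.427 CPM in Enz-R, against 89.5 ± 1.22 CPM in parental (-4.71 ± 0.09, adjusted p = 5.78e-15), and DLL4 fell at low counts (-1.69 ± 0.39). In the B7 family the natural killer cell ligand gene NCR3LG1 fell (-0.82 ± 0.13) and VTCN1 (B7-H4) rose at about 1 CPM (1.15 ± 0.30), while CD274 (PD-L1, -0.49 ± 0.23), PDCD1LG2 (-0.08 ± 0.32) and ICOSLG (-0.43 ± 0.25) were not called. CD274 was called lower with total count scaling and without Enz-R replicate 3.

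NECTIN4 differed in direction from its called relatives. NECTIN3 fell to 9.01 ± 2.47 CPM in Enz-R, against 43.3 ± 0.505 CPM in parental (-2.24 ± 0.13), NECTIN1 fell slightly (-0.23 ± 0.06), PVR, the poliovirus receptor gene, fell (-0.88 ± 0.09), and NECTIN2 was not called (-0.15 ± 0.07, adjusted p = 0.0647), but was called lower with total count scaling and with GC content and length regressed out. Of the dipeptidyl peptidases, lysosomal DPP7 rose (0.94 ± 0.08), cytosolic DPP8 (-0.39 ± 0.08) and the prolyl endopeptidase gene PREP (-0.46 ± 0.07) fell, and DPP9 was not called (-0.03 ± 0.07). The DPP8 call was lost with GC content and length regressed out, at -0.09. FAP, the closest relative of DPP4, had 2 counts in Enz-R and 1 in parental.

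**Figure D3:**
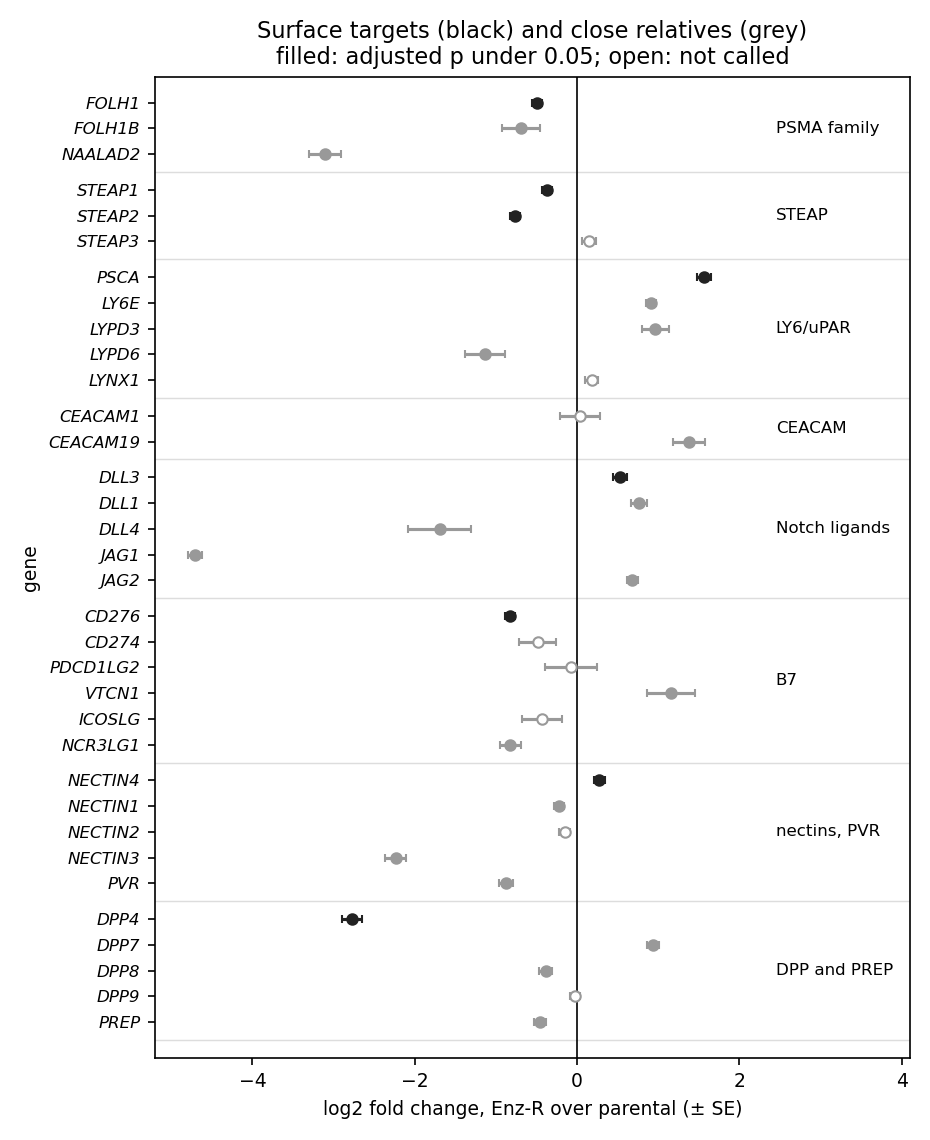
Log2 fold change of Enz-R over parental, with SE, for the surface targets (black) and the close relatives with at least 1 CPM in either line (grey), grouped by family. Filled points have adjusted p under 0.05. DPP4 (-2.77) and PSCA (1.57) are the extremes among the black points, and JAG1 (-4.71) is the lowest of the relatives.

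A list of 49 further surface proteins used as targets in solid tumours held 36 tested genes, of which 10 were higher, 17 lower and 9 not called, with a median log2 fold change of -0.33. Their called share was 75.0%, beside 64.8% of all genes. Among the higher genes were CDH3, which encodes P-cadherin, at 82.9 ± 3.31 CPM in Enz-R and 24.1 ± 1.10 CPM in parental (1.79 ± 0.07), the adhesion molecule gene ALCAM (0.51 ± 0.09) and the mucin gene MUC1 (0.42 ± 0.15). The MUC1 call was lost under 7 of 15 alternatives, total count scaling, DESeq2, GC content and length regressed out and 4 libraries left out in turn, Enz-R replicates 1 and 3 and parental replicates 2 and 3, among them. Among the lower genes were the insulin-like growth factor receptor gene IGF1R, at 14.7 ± 0.848 CPM in Enz-R and 97.7 ± 2.72 CPM in parental (-2.73 ± 0.07), the fibroblast growth factor receptor gene FGFR3 (-1.66 ± 0.11) and the pseudokinase gene PTK7 (-1.20 ± 0.08). The number of higher genes was 8 to 11 and of lower genes 16 to 20 over the alternatives.

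**Figure D4:**
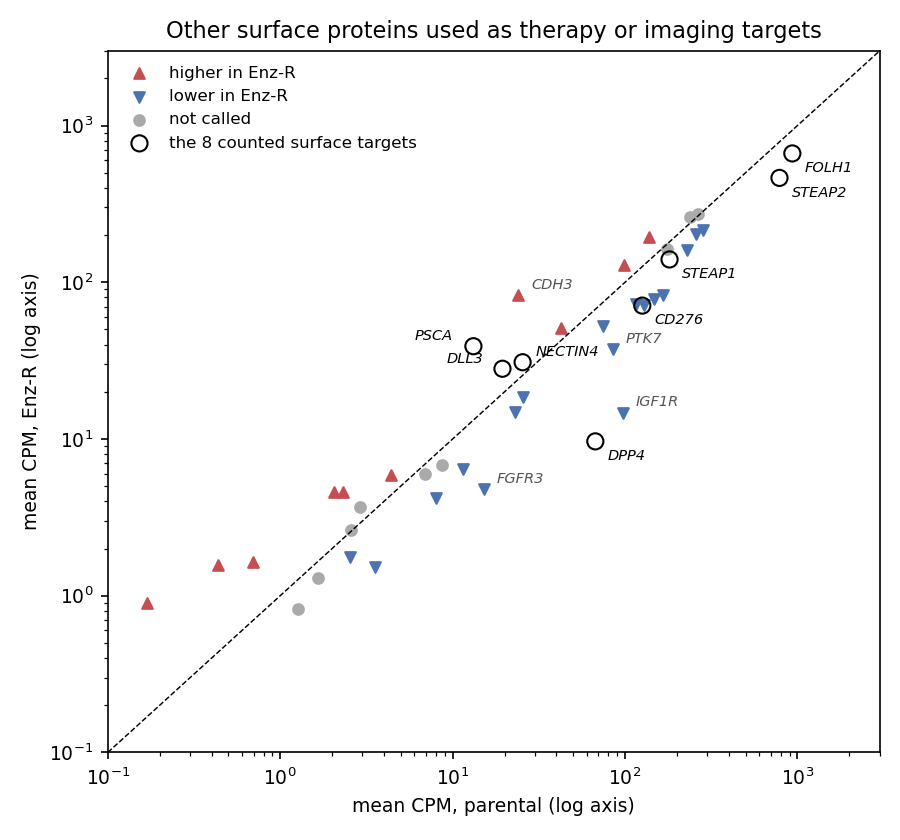
Mean CPM in Enz-R against mean CPM in parental (both log axes) for the 36 tested further surface targets, with triangles for genes called higher or lower, and for the 8 counted surface targets as open circles. The dashed line marks equal levels. PSCA and CDH3 lie well above it, and DPP4, IGF1R and FGFR3 well below.

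By position, each gene was set beside the 10 nearest tested protein-coding genes on each side. These windows differ much in size. That of NECTIN4 ran from 160.2 to 161.2 Mb, but that of FOLH1 from 47.4 to 57.7 Mb and that of DPP4 from 158.2 to 167.9 Mb. The neighbours of PSCA, among them the LY6 family gene SLURP1 (1.93), had a median log2 fold change of 0.53, with 12 of 20 higher and 4 lower, beside 32.4% higher and 32.3% lower over all tested genes. Of these 20, 18 lay below PSCA itself. The neighbours of CEACAM5 had a median of 0.83, with 14 of 20 higher and 1 lower, beside the same 32.4% and 32.3%, and RPS19, the next tested gene, rose by 1.43 ± 0.07 (a ribosomal protein gene with processed pseudogenes that can share its reads), while CEACAM5 stayed at 0 counts. The neighbours of DLL3 had a median of 0.27, and 13 of 20 lay below DLL3.

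The neighbours of DPP4 had a median of -0.13, and DPP4 was lower than all 20 of them, the lowest of which was B3GALT1 (-2.31). The medians were -0.31 for CD276, -0.30 for FOLH1, -0.17 for NECTIN4, -0.11 for STEAP1 and -0.07 for STEAP2. NECTIN4 was higher than 16 of its 20 neighbours, and CD276 was lower than all but 2 of its own, LOXL1 (-2.28) being the lowest. The medians shifted when 5 genes on each side were taken, so they describe these windows only, and no test was made of them.

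**Figure D5:**
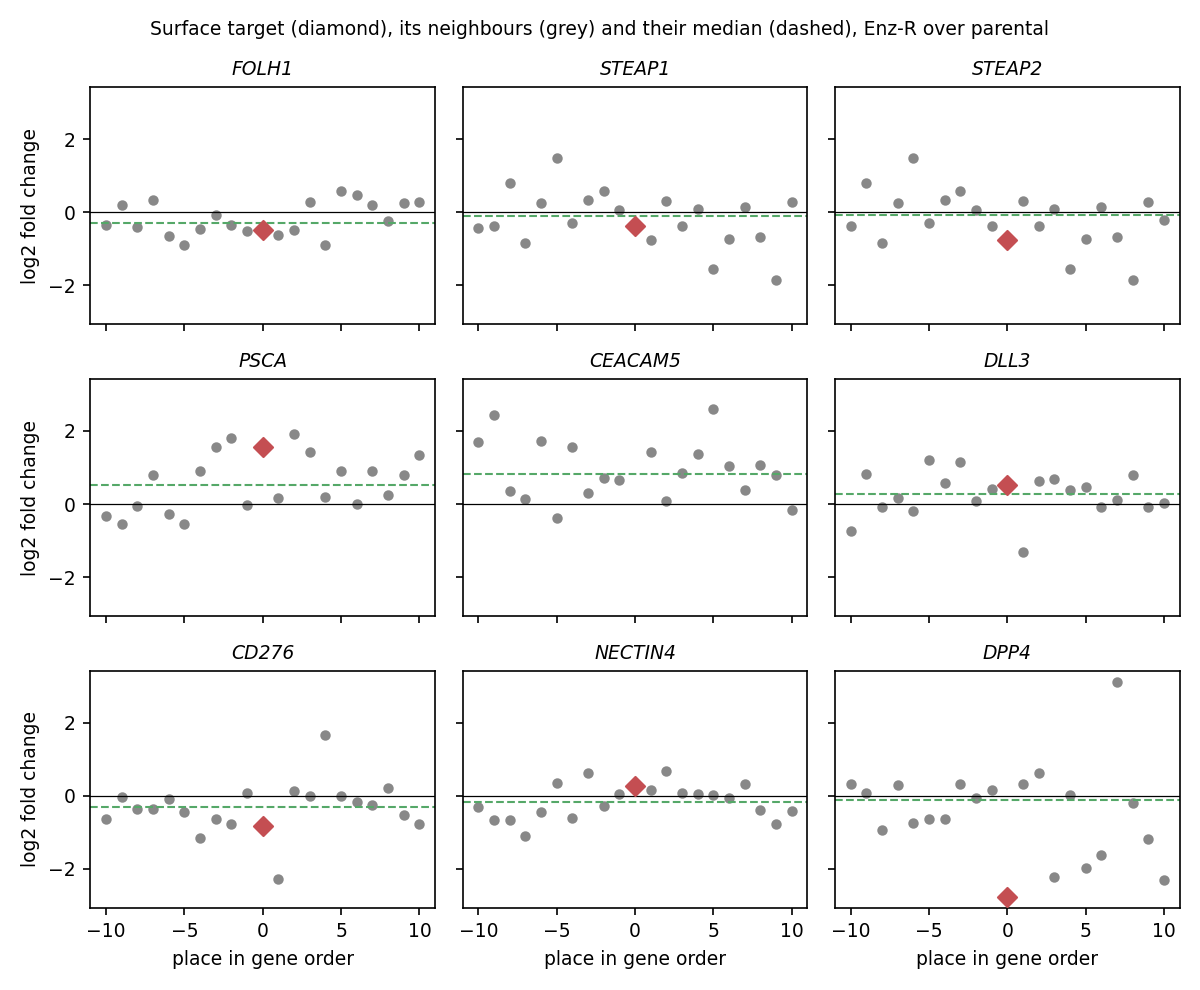
Log2 fold change of Enz-R over parental for each surface target (red diamond) and its 20 nearest tested protein-coding genes (grey) by place in gene order, with their median as a dashed line. DPP4 lies below all of its neighbours. The neighbours of CEACAM5, which has no diamond, lie mostly above 0, with a median of 0.83.

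The 3 protein-coding genes whose profiles over the 6 libraries were most like each surface target were found by Euclidean distance between centred log2 CPM values, among 11196 genes. Any such likeness rests mainly on the difference between the lines, since there are only 2 groups. For DPP4 they were ABCB11 (distance 0.32), ZIK1 (0.33) and SLC7A5 (0.38), and only 9 genes lay within 0.5. For PSCA they were BEX5 (0.16), RPS19 (0.19) and IER5 (0.20), and 154 genes lay within 0.5. The others had 2033 to 4566 genes within 0.5, led by EIF3A, SLK and IQCE for FOLH1, RUVBL1, ZSCAN29 and AGAP1 for STEAP1, THRAP3, RABGAP1 and RXRA for STEAP2, DHRS13, SERINC5 and DCAF12 for CD276, BBOF1, ZNF787 and SCARF1 for DLL3, and PCID2, PRKD2 and DECR2 for NECTIN4.

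The luminal prostate identity of both lines was checked with 8 markers, all of which were counted well above the filter, with a summed level of 4777 to 5049 CPM in Enz-R libraries and 7522 to 8061 CPM in parental libraries. Of the 8, 2 rose (KRT18, 0.70 ± 0.07, and KRT8, 0.40 ± 0.06) and 4 fell, among them KLK3 (-0.91 ± 0.08) and HOXB13 (-0.80 ± 0.07), while FOXA1 was not called. The called share of 75.0% stands beside 64.8% of all genes. Of 3 basal markers, TP63 was at 3.17 ± 0.0687 CPM in Enz-R and 3.51 ± 0.543 CPM in parental and was not called, KRT5 had 2 counts in Enz-R and 4 in parental, and KRT14 had 0 and 47 and was called lower. The 5 immune markers summed to 1.53 to 2.14 CPM in Enz-R libraries and 1.00 to 1.90 CPM in parental libraries. Of these, PTPRC had 6 counts in Enz-R and 2 in parental, and CD68, with 69 and 51 counts, was called higher (0.78 ± 0.28), a call lost under 7 of 14 alternatives. The 4 endothelial markers summed to 2.94 to 3.42 CPM in Enz-R libraries and 7.30 to 9.74 CPM in parental libraries. Among them PECAM1 had 4 and 2 counts, CDH5 had 3 and 1, and VWF (-2.96 ± 0.23) and KDR (-0.49 ± 0.20) fell. The KDR libraries of the lines overlapped, and the KDR call was lost under 8 of 15 alternatives. The 5 fibroblast markers summed to 49.4 to 58.4 CPM in Enz-R libraries and 60.1 to 63.2 CPM in parental libraries, most of it from COL1A1, which was at 46.7 ± 4.45 CPM in Enz-R and 54.7 ± 1.98 CPM in parental and was called lower (-0.23 ± 0.07), a call lost without Enz-R replicate 1 or Enz-R replicate 2. DCN had 2 and 3 counts. The part of these markers in the results above was not tested. Mitochondrially encoded genes took 14.5 to 15.5% of counts in Enz-R libraries and 8.78 to 11.3% in parental libraries, and leaving them out before scaling moved none of the 8 genes across the threshold.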

How the data were processed

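Per the submitters' processing notes, the authors aligned reads by HISAT2 against GRCh38. The sources used here do not give its version, the counting tool, the annotation or the use of strand. The deposited table holds raw counts per gene and library, from which everything else was computed. Identifiers were matched to GENCODE 29 for names, positions and exon lengths. edgeR 4.0.16 in R 4.3.3 was used with filterByExpr, TMM scaling, glmQLFit and glmQLFTest without covariates, and adjusted p under 0.05 was called. SE values derive from the F statistic. CPM use totals scaled by TMM factors. Ratios used a pseudocount of 0.5 counts. Alternatives used DESeq2 1.42.0, limma 3.58.1 voom, other scalings and filters, the replicate block and each library left out. Python 3.11.15, pandas 2.3.3, numpy 2.4.6, scipy 1.17.1 and matplotlib 3.10.9 were used.

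The members and gene lists were chosen with earlier results of these data known. Named genes are the 9 surface targets, relatives with at least 1 CPM in either line, the largest called changes of each list at 5 CPM or more (3 each way at most), and the 3 most like genes per target. Library totals were 15673404 to 28247038 counts, and chi-square per degree of freedom between replicates was 4.19 to 10.3, so no 2 libraries agree within counting error. Values of some listed genes are not reported here.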

Additional observations from a re-analysis of the deposited data

How the results depend on the processing

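The direction and call of each of the 8 counted surface targets were the same under all 15 alternatives, as were the numbers of 5 lower and 3 higher targets. Over all genes 5097 to 6475 were higher and 5049 to 7094 lower, against 6173 and 6150. Log2 fold changes over the alternatives ran from -3.02 to -2.66 for DPP4, -0.93 to -0.77 for CD276, -0.86 to -0.50 for STEAP2, -0.59 to -0.46 for FOLH1, -0.51 to -0.31 for STEAP1, 0.18 to 0.31 for NECTIN4, 0.27 to 0.58 for DLL3 and 1.17 to 1.63 for PSCA. The STEAP2, DLL3 and PSCA values nearest 0 came after correction for GC content and transcript length, and the NECTIN4 one with total count scaling. The cause was not tested.

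With the replicate block 6179 genes were higher and 6158 lower, and no surface target changed its call. Same-numbered libraries deviated from their group means with correlations of 0.05, -0.01 and 0.01, and not every library correlated best with its own number, so the numbers were not taken to pair the samples.

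Without length, 6 targets in Enz-R and 4 in parental took another place in the order. With 5 neighbours on each side the neighbours' medians were -0.46 for FOLH1, 0.079 for STEAP1, -0.11 for STEAP2, 0.91 for PSCA, 0.78 for CEACAM5, 0.52 for DLL3, -0.23 for CD276, 0.070 for NECTIN4 and -0.015 for DPP4. Those of STEAP1 and NECTIN4 thus changed sign. Without a library the log2 ratio differences kept their sign, at 0.36 to 0.43 for STEAP1 to STEAP2 and -2.51 to -2.22 for DPP4 to FOLH1. The depth limits CEACAM5, which had 0 counts, and gives wide SEs for relatives below about 2 CPM.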

Other observations

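Genes that work with the proteins described were also counted. Of 7 folate and glutamate genes around FOLH1, 6 were tested, with 2 higher, 1 lower and a median log2 fold change of -0.01. The called share was 50%, beside 64.8% of all tested genes. GGH, the lysosomal gamma-glutamyl hydrolase gene, which like PSMA removes glutamates from folates, was at 72.4 ± 4.93 CPM in Enz-R and 25.8 ± 0.898 CPM in parental (1.49 ± 0.07, adjusted p = 1.28e-10 by edgeR). The folate transporter gene SLC46A1 rose slightly (0.28 ± 0.10), a call lost with total count scaling and without parental replicate 1. FPGS, which adds glutamates to folates, stood at -0.01 ± 0.06 and was not called, except as lower with GC content and length regressed out.

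Of 10 iron and copper handling genes around the STEAP metalloreductases, 9 were tested, with 3 higher, 4 lower and a median of -0.08. The called share was 77.8%, beside 64.8% of all genes. The copper importer gene SLC31A1 fell to 42.2 ± 3.14 CPM in Enz-R, against 109.6 ± 10.9 CPM in parental (-1.37 ± 0.08), the zinc and iron importer gene SLC39A14 fell (-1.04 ± 0.07), and the transferrin receptor gene TFRC fell (-0.90 ± 0.09). The heme oxygenase gene HMOX1 rose (1.68 ± 0.19), as did TFR2 (0.54 ± 0.06) and the ferritin light chain gene FTL (0.53 ± 0.08). FTL has processed pseudogenes that can share its reads.

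Of 9 Notch receptor and target genes, 8 were tested, with 1 higher, 4 lower and a median of -0.15. The called share was 62.5%, beside 64.8% of all genes. HES1 rose to 333 ± 40.0 CPM in Enz-R, against 147 ± 23.5 CPM in parental (1.18 ± 0.11), and NOTCH3 (-0.53 ± 0.06), NOTCH2 (-0.31 ± 0.07) and HES6 (-0.18 ± 0.08) fell. The Notch target HEY1, named after its values were seen since it lay below 5 CPM, had the largest fall of the list, with 40 counts in Enz-R and 177 in parental (-1.78 ± 0.27). The NOTCH2 value was 0.01 with GC content and length regressed out, and the HES6 call was lost under 8 of 15 alternatives. Of 9 DPP4 ligands and substrates only 4 were tested, with 1 higher, 2 lower and a median of -0.30. The called share was 75.0%, beside 64.8% of all genes. ADA, the adenosine deaminase that binds DPP4, was higher (0.69 ± 0.09), and the fibronectin gene FN1 was among the lower genes (-0.52 ± 0.07).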
